A study of Arabidopsis thaliana with 6 samples.

Results

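The genes described here, 10 in number, build and modify methionine-derived glucosinolates in Arabidopsis, and their RNA was measured in floral tissue of the wild type and of a mutant in 4 regulators of pistil development. The set holds the cytochrome P450 genes *CYP79F1*, *CYP79F2* and *CYP83A1*, the flavin monooxygenase genes *FMO GS-OX1* to *FMO GS-OX5*, and the regulator genes *MYB28* and *MYB29*. These are 10 of the 21799 genes with values in the expression table. They were chosen by their place in the pathway and from results of the same genotype contrast, so the counts of changed members given here are a description of the choice and support nothing by themselves.

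RNA from inflorescences up to stage 12 of flower development, which is before fertilization, was compared between wild-type Col-0 and a quadruple mutant, *bee1 bee3 stk ces-4*. The mutant carries alleles of *SEEDSTICK* (*STK*), which encodes a MADS-domain transcription factor of ovules and fruit, and of *CESTA* (*CES*), *BEE1* and *BEE3*, which encode basic helix-loop-helix transcription factors linked to brassinosteroid signalling. There were 3 biological replicates of each genotype, each a pool of 5 plants grown in long days. The sample titles name the *CES* allele *ces-4*, whereas the RNA extraction notes write *ces-2*; the titles are followed here. Whole inflorescences hold sepals, petals, stamens, pistils and stem tissue, so fewer cells of a type and less RNA per cell cannot be told apart.

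Glucosinolates are sulfur-rich defence compounds of the cabbage family, and the enzyme myrosinase splits them into toxic products when tissue is damaged. The aliphatic class starts from methionine, whose side chain is first lengthened. CYP79F1 and CYP79F2 then turn the lengthened amino acids into aldoximes, CYP83A1 oxidizes these, and later enzymes add sulfur, glucose and sulfate to finish the core. The FMO GS-OX enzymes act on the finished compound and convert its methylthioalkyl side chain to a methylsulfinylalkyl one. MYB28 and MYB29 are related R2R3 MYB transcription factors that switch on genes of the whole aliphatic route.

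Sequence likeness matters for these genes because several are close copies, and short reads must be assigned to one or the other. On the TAIR10.1 assembly of RefSeq, *CYP79F2* (AT1G16400, chr1:5605044-5607498, plus strand) lies directly before *CYP79F1* (AT1G16410, chr1:5608682-5612064, plus strand), with 1183 bases between them. Their coding sequences were identical at 91.9% of aligned positions and their proteins at 89.33%, or 477 of 534 aligned residues. The stretch below, coding bases 994 to 1053 of *CYP79F1* and 991 to 1050 of *CYP79F2*, is shown because a read from it fits both genes.
CYP79F1 and CYP79F2: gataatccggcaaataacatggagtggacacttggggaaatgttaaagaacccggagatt
Such stretches were rare. Of the 2694 windows of 50 bases in the *CYP79F1* transcript, 54 occurred in *CYP79F2* as well (2.0%), and of the windows of 100 bases only 1 did. The values of both genes are therefore given separately.

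*MYB28* (AT5G61420, chr5:24689069-24691187, minus strand) and *MYB29* (AT5G07690, chr5:2446669-2448584, plus strand) were less alike, with 78.15% coding and 70.64% protein identity. No window of 50 bases was shared by any other transcript. The 60 coding bases where the 2 genes are most alike (226 to 285 in both) are printed to show that even there reads can be told apart, with the 4 differing bases in capitals.
MYB28: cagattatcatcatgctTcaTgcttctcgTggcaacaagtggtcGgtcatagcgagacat
MYB29: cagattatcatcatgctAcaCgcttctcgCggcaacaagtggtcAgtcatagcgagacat

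The S-oxygenase genes *FMO GS-OX2* (AT1G62540, chr1:23151634-23155728), *FMO GS-OX3* (AT1G62560, chr1:23159734-23162881) and *FMO GS-OX4* (AT1G62570, chr1:23168767-23172175) stand in a row on the plus strand within 20.5 kb. *FMO GS-OX1* (AT1G65860, chr1:24498954-24502776, minus strand) and *FMO GS-OX5* (AT1G12140, chr1:4121285-4124595, plus strand) lie elsewhere on chromosome 1. Among the 5, coding identity ran from 73.4% (*FMO GS-OX3* with *FMO GS-OX5*) to 85.37% (*FMO GS-OX1* with *FMO GS-OX2*). The most similar 60 coding bases of the neighbours *FMO GS-OX3* (331 to 390) and *FMO GS-OX4* (331 to 390), of which the first was called and the other was not, have 4 differing bases, shown in capitals.
FMO GS-OX3: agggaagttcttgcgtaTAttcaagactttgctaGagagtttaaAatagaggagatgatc
FMO GS-OX4: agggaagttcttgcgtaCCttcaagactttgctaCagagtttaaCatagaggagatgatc
*FMO GS-OX1* and *FMO GS-OX2* shared 4 windows of 50 bases and none of 100. *FMO GS-OX5* is the exception, because its last part overlaps the gene AT1G12150 on the opposite strand and AT1G04933 on its own, and 23.48% of its 50-base windows occur in their transcripts. The library kit keeps strand, but the sources used here do not say whether the counting did. In mutant replicate 2 the read numbers of *FMO GS-OX5* and AT1G12150 were the fractions 418.2 and 197.8. In mutant replicate 3 they were 410.5 and 172.5. Reads thus appear to have been divided between these genes, and how far this affects the values of *FMO GS-OX5* is not known. *CYP83A1* (AT4G13770, chr4:7990429-7992429, minus strand) had no shared window.

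Expression is given in CPM, the number of reads of a gene scaled to the size of the library. The samples held 15.9 to 21.2 M reads on the listed genes. A level of 3 reads, used as the limit of detection, equals 0.137 to 0.185 CPM. Differences are the mutant minus Col-0 on the scale of log2(CPM + 0.5), which understates changes of low genes. They were tested with limma-trend for the 21287 genes with over 0.5 CPM in at least 3 samples, and a gene was called at a Benjamini-Hochberg adjusted p under 0.05. The 4 mutated genes checked the labels: *STK* went from 51.4 ± 2.47 to 10.2 ± 0.436 CPM (mean ± SD, n = 3), *CES* from 36.9 ± 2.48 to 1.79 ± 0.234, *BEE1* from 11.1 ± 1.83 to 2.79 ± 0.323 and *BEE3* from 4.32 ± 0.583 to 0.153 ± 0.133. All 4 were called lower. Col-0 replicate 2 was the sample least like its group, with correlations across genes of 0.981 and 0.985 with the other Col-0 samples against 0.991 between those.

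Of the 10 members, 8 passed the filter on low values and 3 of these were called higher in the mutant: *CYP79F1*, *CYP83A1* and *FMO GS-OX3*. Among all genes tested 0.132% were called higher and 0.564% lower, and no member was called lower. In 6 of the 8 tested members all 3 mutant values lay above all 3 Col-0 values, which held for 6.92% of all tested genes. The median difference of the 8 was 0.89, beside 0.01 over all tested genes. *CYP79F2* and *MYB29* were too low to be tested.

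**Figure D1:**
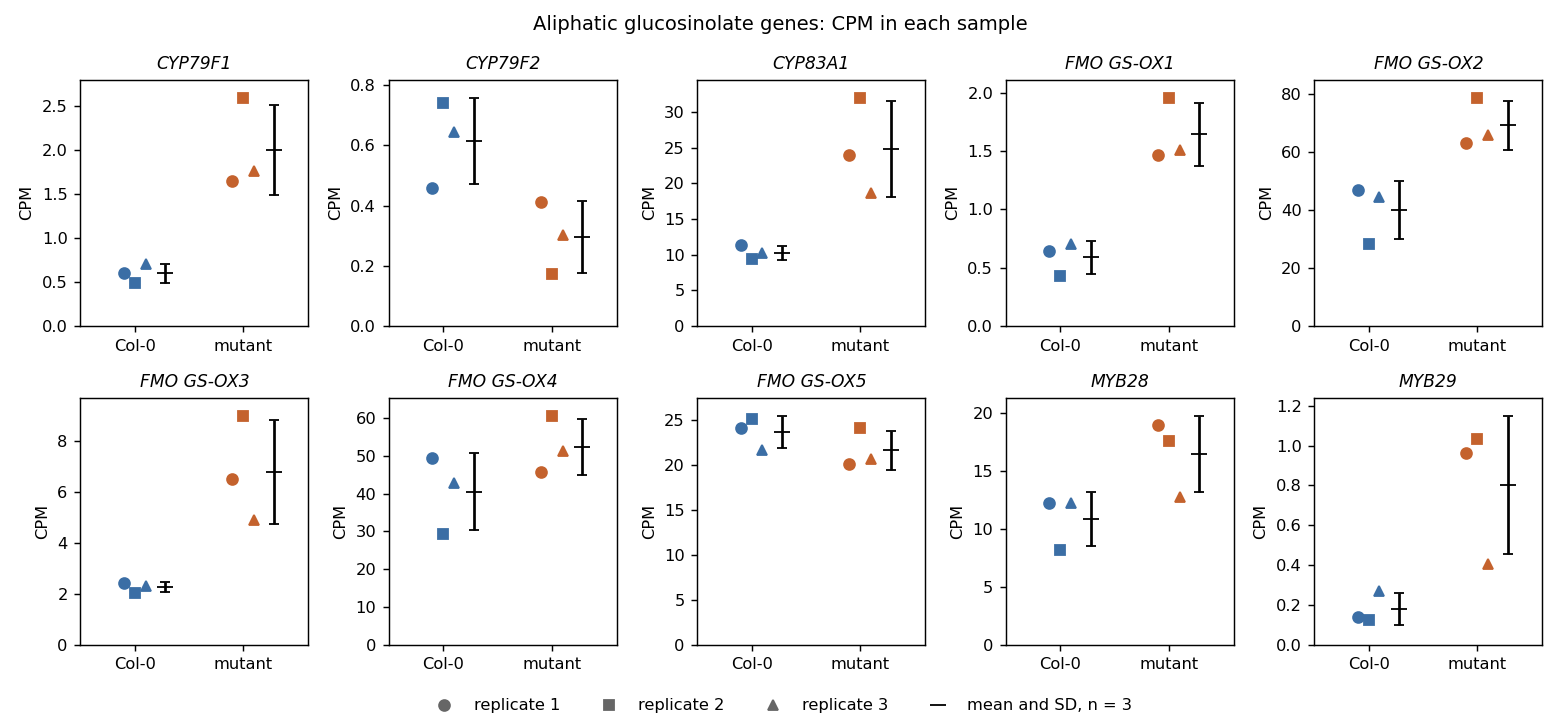
CPM of the 10 genes in each of the 6 samples, with a separate vertical axis from 0 for each gene; coloured points are replicates (circle 1, square 2, triangle 3), and the black bar is the mean with its SD. *CYP79F1*, *CYP83A1*, *FMO GS-OX1*, *FMO GS-OX2*, *FMO GS-OX3*, *MYB28* and *MYB29* have all mutant points above all Col-0 points, *CYP79F2* has them below, and *FMO GS-OX4* and *FMO GS-OX5* overlap.

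The genes of the CYP79F pair differed in opposite directions, and only the difference of *CYP79F1* was called. *CYP79F1*, whose enzyme accepts both short and long elongated methionines, stood at 0.598, 0.493 and 0.700 CPM in Col-0 replicates 1, 2 and 3 and at 1.65, 2.59 and 1.76 CPM in the mutant replicates. Even the lowest mutant sample was far above the highest Col-0 sample. The difference was 1.17 ± 0.21 (SE; limma-trend adjusted p = 0.0472), and the mean went from 0.597 ± 0.103 to 2.00 ± 0.513 CPM, a ratio of 3.35. These levels rest on few reads, 8 to 13 per Col-0 sample and 35 to 45 per mutant sample. Summed over samples there were 34 reads against 116, a depth-adjusted ratio of 3.26 with an exact 95% interval from 2.21 to 4.93 that covers counting error only.

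*CYP79F2*, whose enzyme works on the long-chain substrates, gave 0.460, 0.740 and 0.646 CPM in Col-0 and 0.413, 0.173 and 0.302 CPM in the mutant. All mutant values were below all Col-0 values, as in 7.41% of tested genes, although the gap between the closest samples, 0.460 and 0.413 CPM, was that of a single read. The mean was 0.615 ± 0.142 CPM in Col-0 and 0.296 ± 0.120 in the mutant. Summed reads were 34 against 18, a ratio of 0.506 (exact 95% interval 0.269 to 0.922, counting error only). Only 2 samples exceeded 0.5 CPM, and with the filter lifted the difference of -0.49 had an adjusted p of 0.529.

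The balance of the pair within each sample is given as a description, with no test, since it rests on few reads. *CYP79F1* made up 56.5%, 40.0% and 52.0% of the CPM of the pair in Col-0 and 80.0%, 93.8% and 85.4% in the mutant. Per kilobase of transcript the ratio of *CYP79F1* to *CYP79F2* was 0.956, 0.491 and 0.797 in Col-0 and 2.94, 11.0 and 4.29 in the mutant. *CYP79F2* was at 9, 3 and 6 reads in the mutant samples, and replicate 2, with 3 reads, is at the limit of detection, so its 93.8% and 11.0 are not exact values. In Col-0, where reads were 13, 8 and 13 for *CYP79F1* and 10, 12 and 12 for *CYP79F2*, neither gene stood clearly above the other. The sum of the pair was 1.21 ± 0.145 CPM in Col-0 and 2.30 ± 0.403 in the mutant, with no overlap. The nearest tested genes on either side of the pair, AT1G16380 and AT1G16430, differed by -0.16 and -0.08 (adjusted p 0.870 and 0.908). The pair lies 0.72 Mb from *BEE1*, *CYP83A1* 1.75 Mb from *STK* and *FMO GS-OX3* 4.60 Mb from *BEE3*, whereas the MYB genes lie on chromosome 5, which holds no mutated gene. Some other genes named below lie nearer to a mutated gene. Whether sequence linked to a mutant allele plays a part was not tested for any gene.

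*CYP83A1* encodes the P450 that takes over the aldoximes from both CYP79F enzymes. It was read at 11.3, 9.37 and 10.2 CPM in Col-0 and at 23.9, 32.0 and 18.6 CPM in the mutant. Its Col-0 samples were tightly grouped, and each mutant sample was above all of them. The difference was 1.20 ± 0.18 (limma-trend adjusted p = 0.0198), with means of 10.3 ± 0.974 and 24.9 ± 6.72 CPM and a ratio of 2.41. *CYP83B1*, which encodes the enzyme of the same step in the route to indole glucosinolates from tryptophan, was at 53.7 ± 9.12 and 55.0 ± 6.57 CPM. The CPM ratio of *CYP83A1* to *CYP83B1* was therefore 0.196 ± 0.0418 in Col-0 and 0.463 ± 0.162 in the mutant, with separate ranges.

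The call on *CYP79F1* was the least stable. It was lost without any 1 of the 6 samples (adjusted p from 0.0797 without Col-0 replicate 2 to 0.226 without mutant replicate 2), with differences of 1.01 to 1.27. *CYP83A1* lost its call without Col-0 replicate 1 (adjusted p = 0.0725), Col-0 replicate 3 (0.0772) or mutant replicate 1 (0.111), with differences of 1.20 to 1.27.

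**Figure D2:**
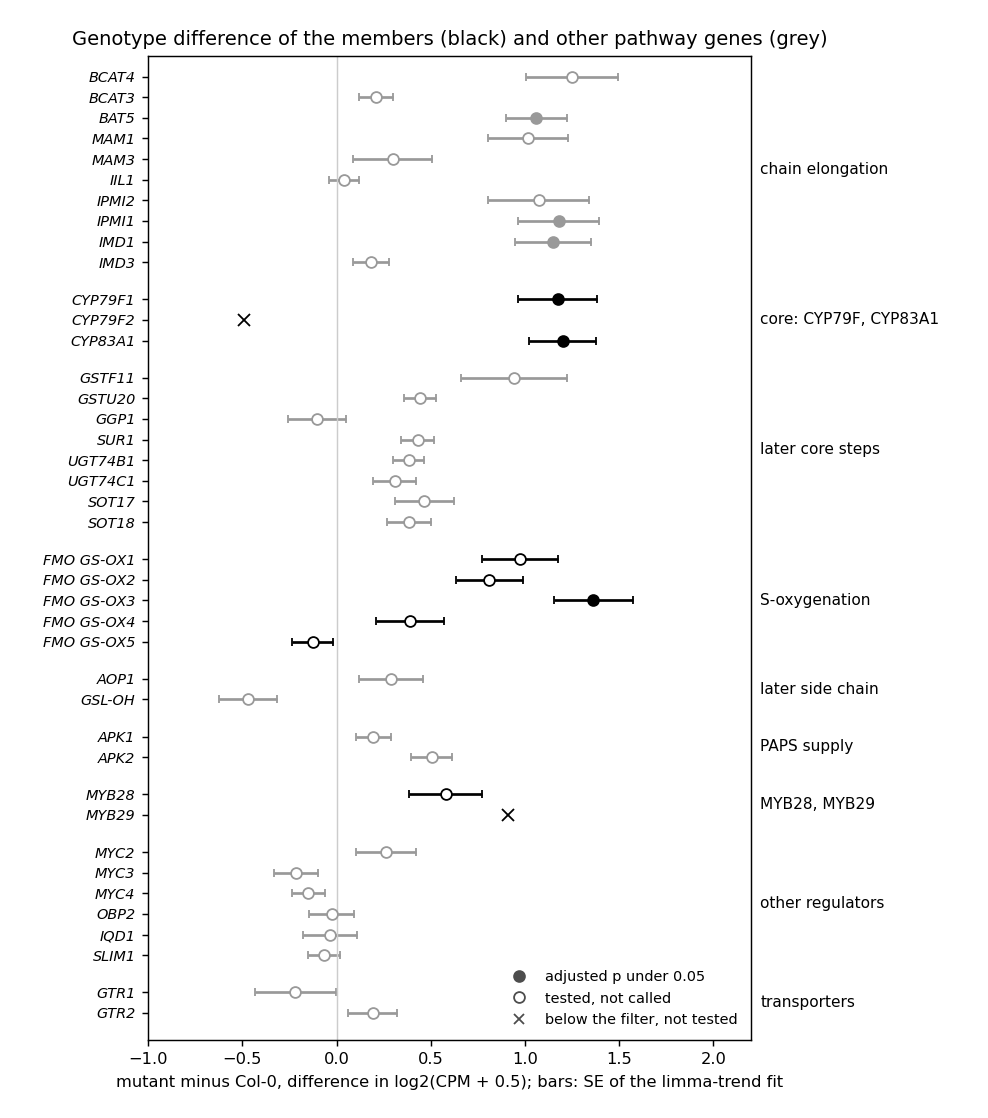
Difference between the mutant and Col-0 on the log2(CPM + 0.5) scale for the 10 members (black) and 30 other genes of the pathway (grey), ordered by step; bars are SEs of the limma-trend fit, filled points have an adjusted p under 0.05 and crosses were too low to test. Filled points occur in chain elongation (*BAT5*, *IPMI1*, *IMD1*), the first core steps (*CYP79F1*, *CYP83A1*) and S-oxygenation (*FMO GS-OX3*).

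Among the S-oxygenase genes the 3 neighbours on chromosome 1 had unequal differences. *FMO GS-OX3* rose from 2.44, 2.03 and 2.31 CPM in Col-0 to 6.51, 8.97 and 4.88 CPM in the mutant. The groups were far apart, and the spread was wider in the mutant. The difference was 1.36 ± 0.21 (limma-trend adjusted p = 0.0226), with means of 2.26 ± 0.207 and 6.79 ± 2.06 CPM. The call was lost without Col-0 replicate 1 (adjusted p = 0.0880), Col-0 replicate 3 (0.0796), mutant replicate 1 (0.127) or mutant replicate 2 (0.0666), at differences of 1.16 to 1.41.

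*FMO GS-OX2*, which encodes a broad S-oxygenase like its neighbours, was at 47.0, 28.4 and 44.6 CPM in Col-0 and at 63.0, 78.6 and 65.9 CPM in the mutant. The groups did not overlap, but the Col-0 samples were spread, with replicate 2 well below the others. The difference of 0.81 ± 0.18 had an adjusted p of 0.120. Without Col-0 replicate 2 the difference fell to 0.58 while the adjusted p went to 0.0491; in the other 5 leave-outs the adjusted p was between 0.134 and 0.439.

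*FMO GS-OX4*, the last of the row, gave 49.4, 29.3 and 43.0 CPM in Col-0 and 45.7, 60.5 and 51.3 CPM in the mutant. The groups overlapped and the difference was 0.39 ± 0.18 (adjusted p = 0.565), or 0.18 without Col-0 replicate 2. *FMO GS-OX1*, the closest in sequence to *FMO GS-OX2*, was much lower, with 0.644, 0.432 and 0.700 CPM against 1.47, 1.96 and 1.51 CPM. Its groups were apart and its difference was 0.98 ± 0.20, but it missed the threshold (adjusted p = 0.0968). Its summed reads were 34 and 96, a ratio of 2.70 with an exact 95% counting interval from 1.81 to 4.12.

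*FMO GS-OX5*, which encodes the S-oxygenase that prefers long side chains, was the only tested member with a lower mean in the mutant. Its values were 24.0, 25.1 and 21.7 CPM in Col-0 and 20.1, 24.1 and 20.7 CPM in the mutant, which overlap. The difference was -0.13 ± 0.11 (adjusted p = 0.799). AT1G12150, the gene that overlaps its end, was at 9.02 ± 0.924 and 8.93 ± 2.34 CPM.

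The make-up of S-oxygenase transcripts is also given as a description, with no test. A share depends on all 5 genes, and that of *FMO GS-OX5* was lower in the mutant beside higher values of *FMO GS-OX1*, *FMO GS-OX2* and *FMO GS-OX3*, while its own CPM overlapped. Per kilobase of transcript, *FMO GS-OX5* made up 18.4%, 28.0% and 18.2% of the 5 genes in Col-0 and 13.7%, 12.9% and 13.4% in the mutant. The share of *FMO GS-OX2* was 39.6% ± 3.42 in Col-0 and 48.1% ± 0.473 in the mutant. The low genes *FMO GS-OX1* and *FMO GS-OX3* together held 3.06% ± 0.230 and 6.16% ± 1.05. These 3 shares had separate ranges, whereas that of *FMO GS-OX4* overlapped (35.8% ± 2.64 and 32.4% ± 1.04). The summed CPM of the 5 was 123.5, 85.2 and 112.2 in Col-0 and 136.7, 174.1 and 144.2 in the mutant.

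**Figure D3:**
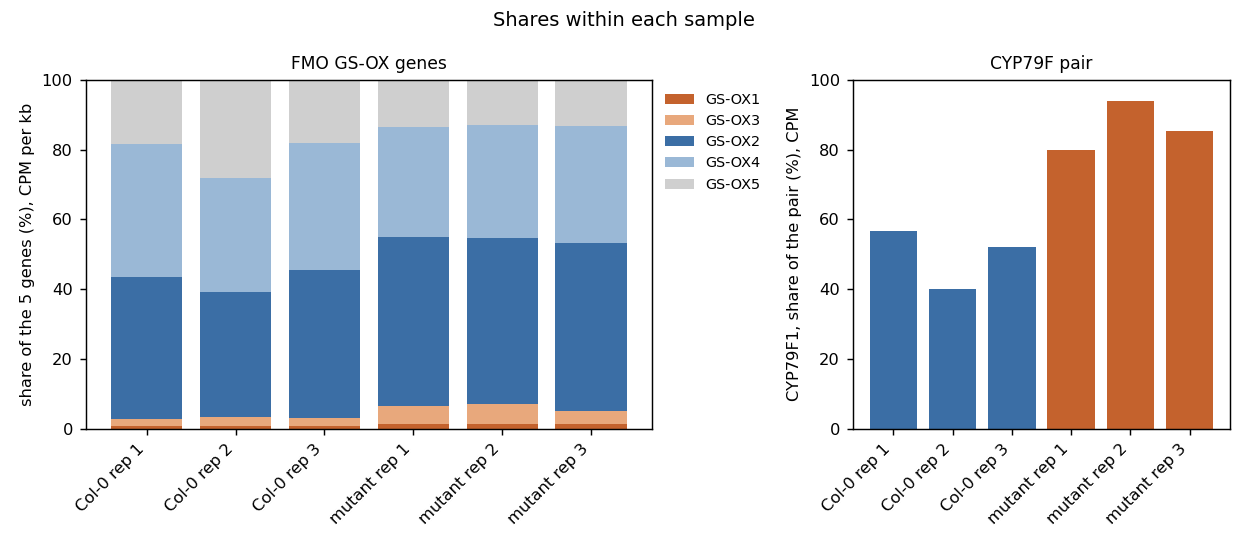
Left, share of each *FMO GS-OX* gene in the summed CPM per kb of the 5 genes, for each sample; right, share of *CYP79F1* in the summed CPM of *CYP79F1* and *CYP79F2*. *FMO GS-OX5* takes 18.2% to 28.0% in Col-0 and 12.9% to 13.7% in the mutant, and *CYP79F1* takes 40.0% to 56.5% of its pair in Col-0 and 80.0% to 93.8% in the mutant.

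The MYB genes of the set, which encode activators of the route, were both higher on average in the mutant, and neither was called. *MYB76*, another regulator gene of the route, had no values in the expression table. *MYB28* was at 12.2, 8.14 and 12.2 CPM in Col-0 and at 19.0, 17.6 and 12.7 CPM in the mutant. The ranges were barely separate, as mutant replicate 3 lay just above the 2 higher Col-0 samples. The difference was 0.58 ± 0.19 (adjusted p = 0.339).

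*MYB29* was the lowest member in Col-0, at 0.138, 0.123 and 0.269 CPM, or 3, 2 and 5 reads. In the mutant it was at 0.963, 1.03 and 0.403 CPM, or 21, 18 and 8 reads, so the ranges were separate and mutant replicate 3 was again the lowest of its group. Summed reads were 10 and 47, a ratio of 4.49 with an exact 95% interval from 2.24 to 9.98 that covers counting error only. With 2 Col-0 samples at or under 3 reads, the Col-0 level of *MYB29* cannot be set apart from the limit of detection. With the filter lifted its difference was 0.91 (adjusted p = 0.236). Per kilobase, *MYB29* was 1.74% ± 0.577 of the sum of the MYB pair in Col-0 and 4.89% ± 1.39 in the mutant.

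Levels spanned a wide range within each genotype. Per kilobase of transcript the order in Col-0 began with *FMO GS-OX2* (20.2 ± 5.13 CPM per kb), *FMO GS-OX4* (18.3 ± 4.64) and *FMO GS-OX5* (10.6 ± 0.788). Then came *MYB28* (5.72 ± 1.24) and *CYP83A1* (5.40 ± 0.510), *FMO GS-OX3* (1.19 ± 0.109), *FMO GS-OX1* (0.341 ± 0.0816), *CYP79F2* (0.305 ± 0.0706), *CYP79F1* (0.218 ± 0.0376) and *MYB29* (0.102 ± 0.0464). The neighbours *FMO GS-OX2* and *FMO GS-OX4*, *MYB28* and *CYP83A1*, *FMO GS-OX1* and *CYP79F2*, and *CYP79F2* and *CYP79F1* overlapped in range. Both CYP79F genes were thus read far below *CYP83A1*, with no overlap in range. In the mutant *CYP83A1* (13.0 ± 3.52 CPM per kb) came next after *FMO GS-OX2* and *FMO GS-OX4*, ahead of *FMO GS-OX5* (9.68 ± 0.967) and *MYB28* (8.66 ± 1.73) with overlapping ranges, and *CYP79F2* (0.147 ± 0.0595) came last.

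Replicates of a genotype also varied in a shared manner. Col-0 replicate 2 was the lowest Col-0 sample for 8 of the 10 members, whereas it was the lowest for 36.7% of all tested genes. Mutant replicate 2 was the highest mutant sample for 8 of the 10, against 35.3% of tested genes. After the mean of its genotype was subtracted, the correlation of a member with the mean of the other 9 over the 6 samples had a median of 0.742, from 0.887 (*FMO GS-OX3*) and 0.884 (*CYP83A1*) down to 0.173 (*FMO GS-OX5*) and -0.716 (*CYP79F2*). For the other tested genes the median correlation with the mean of the members was 0.022, but their spread was wide. Of these genes 90.5% lay below a correlation of 0.753 and 11.3% lay below -0.737. With 6 samples that share libraries and depth these are descriptions. *CYP79F2*, whose correlation had the opposite sign, was at 3 to 12 reads per sample.

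**Figure D4:**
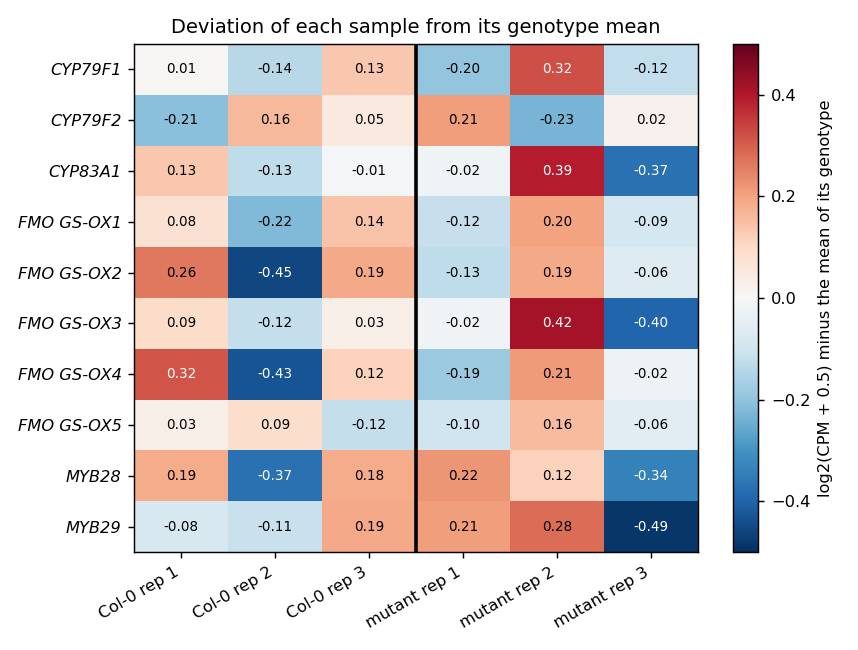
Deviation of each sample from the mean of its genotype, in log2(CPM + 0.5), for the 10 members; the vertical line parts the genotypes. The Col-0 replicate 2 column is negative for all but *CYP79F2* and *FMO GS-OX5*, and the mutant replicate 2 column is positive for all but *CYP79F2*.

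Of the other 30 tested pathway genes, those whose replicate deviations were most like the mean of the members were *OBP2* (r = 0.922 over 6 samples), which encodes a DOF transcription factor, and the chain elongation genes *IMD3* (0.826) and *MAM3* (0.773). Their genotype differences were small, at -0.03, 0.18 and 0.30 (adjusted p 0.977, 0.626 and 0.750). Opposite correlations of like size occurred in the same list, at -0.972 for *APK2*, -0.913 for *MYC2*, -0.858 for *MYC3* and -0.807 for *GGP1*. The median over the 30 genes was 0.263.

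The DNA before the genes was read because CES and BEE proteins belong to a family that binds E-boxes (CANNTG), of which the G-box (CACGTG) is one form. In the 500 bases before the annotated gene start, on either strand, a G-box occurred in 2565 of 27443 protein-coding genes (9.35%) and in 2 of the 10 members, *CYP83A1* and *FMO GS-OX3*. The 60 bases around each are printed with the G-box in capitals; that of *CYP83A1* (chr4:7992440-7992499, minus strand) begins 43 bases before the start and that of *FMO GS-OX3* (chr1:23159374-23159433, plus strand) 333 bases before it.
CYP83A1: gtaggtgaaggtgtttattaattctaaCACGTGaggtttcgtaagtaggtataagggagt
FMO GS-OX3: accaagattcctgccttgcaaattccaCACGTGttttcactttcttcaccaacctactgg
An E-box of any form was found before 6 of the 10 members and before 80.09% of all protein-coding genes. *CYP79F1*, *FMO GS-OX2*, *FMO GS-OX5* and *MYB28* had none in this window. A match of letters does not show binding.

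*CYP79F1* and *CYP79F2* differ far more before the gene than within the coding sequence. Whether the upstream sequence bears on their RNA levels was not tested. The best local alignment of their 500-base upstream windows held 120 identical positions of 176 (68.18%). The 250 bases before each start (chr1:5608432-5608681 and chr1:5604794-5605043, plus strand) are given to show this.
CYP79F1: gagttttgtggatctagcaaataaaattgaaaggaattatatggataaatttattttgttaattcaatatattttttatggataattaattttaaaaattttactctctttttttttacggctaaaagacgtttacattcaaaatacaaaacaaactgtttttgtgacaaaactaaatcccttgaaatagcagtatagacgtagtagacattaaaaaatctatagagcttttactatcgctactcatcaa
CYP79F2: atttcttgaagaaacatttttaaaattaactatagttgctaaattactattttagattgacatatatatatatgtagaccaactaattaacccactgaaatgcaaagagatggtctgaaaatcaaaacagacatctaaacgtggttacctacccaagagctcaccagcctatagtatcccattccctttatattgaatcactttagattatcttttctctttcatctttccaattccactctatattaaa

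The remaining steps of the aliphatic route were read from a list of 33 genes, of which 30 were in the table and tested. This list and those below were chosen with earlier results of these data known. Their counts are thus descriptions and support nothing by themselves. In all, 3 were called higher and none lower, beside 0.132% and 0.564% of all tested genes, and the median difference was 0.29. All 3 belong to chain elongation, the step before *CYP79F1*: *BAT5*, a plastid transporter of the keto acid intermediates, rose by 1.06 ± 0.16 (adjusted p = 0.0220), *IPMI1*, a small subunit of isopropylmalate isomerase, by 1.18 ± 0.21 (0.0490), and *IMD1*, an isopropylmalate dehydrogenase, by 1.15 ± 0.20 (0.0431). *BCAT4*, which encodes the aminotransferase that opens the route, had the largest difference of the list without a call, 1.25 ± 0.24 (0.0677). All 10 chain elongation genes had a positive difference, from 0.04 to 1.25 with a median of 1.04, beside 11082 of the 21287 tested genes. In 7 all mutant values lay above all Col-0 values, as in 6.92% of all tested genes. The count of 3 fell to 0 without Col-0 replicate 1, Col-0 replicate 3 or mutant replicate 2, and to 1 without mutant replicate 1 or mutant replicate 3.

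The later core steps gave smaller differences. None of the 8 genes was called, and the median difference was 0.41. *GSTF11*, a glutathione S-transferase, had the largest, 0.94 ± 0.28 (adjusted p = 0.279), at 0.414, 0.123 and 0.807 CPM in Col-0 and 1.15, 1.50 and 1.11 CPM in the mutant. Its Col-0 values were 9, 2 and 15 reads, so replicate 2 was below the limit of detection. The C-S lyase gene *SUR1*, which serves aliphatic and indole routes, differed by 0.43 ± 0.09 (adjusted p = 0.0867). In 7 of the 8 all mutant values were above all Col-0 values, *GGP1* being the exception, beside 6.92% of all tested genes. Of these 7, *SOT17* lies 0.065 Mb from *BEE1*, *SOT18* 0.101 Mb from *BEE3* and *UGT74B1* 0.353 Mb from *CES*.

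Side-chain and sulfate genes were not called. *GSL-OH*, whose enzyme hydroxylates alkenyl side chains, differed by -0.47 ± 0.16 (adjusted p = 0.333), and *APK2*, which supplies activated sulfate, by 0.51 ± 0.11 (adjusted p = 0.108). Of 6 further regulators 1 had a positive difference, *MYC2* at 0.26 ± 0.16 (adjusted p = 0.692), a bHLH partner of the MYB factors, and 5 a negative one. In 2 of the 6, *MYC4* (-0.15 ± 0.09, adjusted p = 0.675) and *SLIM1* (-0.07 ± 0.08, adjusted p = 0.878), all mutant values were below all Col-0 values. The same held for 7.41% of all tested genes, and 10205 of the 21287 tested genes had a negative difference. *SLIM1* lies 0.027 Mb from *BEE3*. The glucosinolate transporter gene *GTR1* differed by -0.22 ± 0.21 (adjusted p = 0.837). *FMO GS-OX7*, a relative of the S-oxygenases, differed by -0.03 ± 0.19 (adjusted p = 0.983).

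The indole route, which shares later enzymes with the aliphatic one, had no called gene among 6 tested, and its median difference was 0.27. The difference was positive in 5 of the 6, beside 11082 of the 21287 tested genes. In 2 all mutant values lay above all Col-0 values, as in 6.92% of all tested genes. *MYB51*, an activator of the indole route, had the largest difference, -0.74 ± 0.35 (adjusted p = 0.579), with values from 1.66 to 4.38 CPM in Col-0 and from 0.920 to 2.32 in the mutant. *MYB51* lies 0.056 Mb from *BEE1*. *CYP79B3*, the counterpart of the CYP79F genes for tryptophan, was at 10.8, 11.6 and 11.2 CPM in Col-0 and 18.4, 13.4 and 24.9 CPM in the mutant (0.69 ± 0.19, adjusted p = 0.233). The related gene *CYP79B2* was at 10.9, 12.2 and 10.7 CPM in Col-0 and 15.9, 14.8 and 18.0 CPM in the mutant. Its difference was 0.51 ± 0.12 (limma-trend adjusted p = 0.139).

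Markers of cell types that an inflorescence can hold were compared as well. None of 26 markers was called, and the medians of the 5 marker lists were between -0.02 and 0.22. In 2 of the 26, the floral organ identity genes *AP1* and *SEP3*, all mutant values lay above all Col-0 values. The same held for 6.92% of all tested genes. For the 5 phloem and xylem genes, tissue in which aliphatic glucosinolate genes are known to be active, the summed level was 394 to 529 CPM in Col-0 and 470 to 567 CPM in the mutant, with a median difference of 0.22, and its part in the results was not tested. Myrosin cell markers summed to 4037 to 6091 and 4896 to 5033 CPM. Photosynthetic genes summed to 9534 to 9621 CPM in Col-0 and 8575 to 11300 in the mutant. Floral organ identity genes, which mark the labelled tissue, were all present, with sums of 667 to 758 and 747 to 809 CPM, and tapetum and pollen genes summed to 1997 to 2608 and 2164 to 2569. None of the markers was at 0. None of 5 tested genes of the sulfur deficiency response was called, the largest difference being that of *APR3*, -0.27 ± 0.17, at 45.6, 74.4 and 45.2 CPM in Col-0 and 42.6, 44.2 and 46.3 CPM in the mutant.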

How the data were processed

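Per the methods and processing notes, the authors mapped reads with Bowtie2 to TAIR10, obtained expression estimates from RSEM and used edgeR to compare the genotypes. The deposited table holds 1 CPM value per gene and sample, on a linear scale, relative to effective library sizes set by the authors. It also holds the authors' log2 fold change and p-value with its FDR, which were not read. The authors' published list of higher genes partly differs from the calls given here. *CYP83A1*, *FMO GS-OX3*, *BAT5* and *IMD1* are in both. The published list also holds *FMO GS-OX2*, *BCAT4*, *APK2* and the chain elongation gene *MAM1*, and it lacks *CYP79F1* and *IPMI1*. The authors reported that glucosinolate synthesis was enriched among their higher genes. In 2 rows there were no values. Low CPM values were whole reads, within 0.03 read, for 93.0% to 93.8% of those checked. This gave the read numbers, but no count test was run.

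Values were taken as log2(CPM + 0.5) and fitted with limma 3.58.1 (R 4.3.3; lmFit, eBayes with trend) on all 6 samples with genotype as the only term, for the 21287 genes that exceeded 0.5 CPM in 3 or more samples. The Benjamini-Hochberg adjustment ran over this whole set. The fit was tested on simulated data. Alternatives were pseudocounts of 0.1 and 1, no filter or a filter over 1 CPM, column-total and upper-quartile scaling, the replicate number as a block, and leaving out each sample. Exact permutation of 3 against 3 samples cannot go below p = 0.1.

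Levels per kb used the transcript with the longest coding sequence in RefSeq's TAIR10.1 annotation. Identity, windows and motifs came from that assembly with Biopython 1.88. The members and lists were chosen with earlier results of these data known. Named genes were all members, the mutated genes, every called gene and the largest difference of each pathway, related and sulfur list, the 3 pathway genes most like the members among replicates, and the neighbours of the CYP79F pair. Other genes are examples chosen after their values were seen.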

Additional observations from a re-analysis of the deposited data

How the results depend on the processing

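The median difference of the tested members, 0.89, stayed between 0.72 and 1.02 under all alternatives, and no member changed direction. Of the 3 members called, 2 to 3 were called under both pseudocounts, both filters and both scalings. *CYP79F1* lost its call with a pseudocount of 1 (adjusted p = 0.0505) and with the filter over 1 CPM (0.0631). Leaving out 1 sample gave 0 to 3 called members and 0 to 3 called pathway genes. The 3 without Col-0 replicate 2 were *CYP83A1*, *FMO GS-OX2* and *FMO GS-OX3*. Over all genes 148 were called. This count was 61, 159 and 83 without Col-0 replicates 1, 2 and 3, and 73, 76 and 108 without mutant replicates 1, 2 and 3. When a replicate block was added, 0 members, 0 pathway genes and 64 genes in all were called (adjusted p 0.187 for *CYP79F1*, 0.0694 for *CYP83A1* and 0.0871 for *FMO GS-OX3*). Deviations of same-numbered samples correlated at -0.155 to -0.102, which shows no likeness by number. With 3 samples per genotype this cannot exclude that the numbers pair the samples. The pseudocount shrinks the low genes. Without it, the ratio of mean CPM on the log2 scale, an alternative chosen after seeing the data, was 1.75 for *CYP79F1*, -1.06 for *CYP79F2*, 1.47 for *FMO GS-OX1* and 2.18 for *MYB29*. Depth limits *CYP79F2* and *MYB29* most.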
